A study of Homo sapiens with 9 samples.

Results

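Collagen chains were taken as all entries of the count table whose symbol is COL, a number, A and a number (COL1A1, COL9A3), which gave 44 of 25382 genes. RNA was sequenced from 501mel, an established melanoma line, with cells harvested 24 h after DsiRNA had been delivered by lipofection; a DsiRNA is a short RNA duplex from which Dicer makes a silencing guide. Control cells received the non-targeting DsiRNA NC1, and the other groups received DsiRNA 13.6 or DsiRNA 13.8, which both target TBX3, a T-box transcription factor. Each of the 3 groups held 3 libraries, called biological replicates by the labels, and the design asks how expression differs after knockdown. All groups share the line, the serum-containing medium, the transfection and the time point. TBX3 stood at 88.6, 83.8 and 84.0 CPM in the control libraries, 46.4, 41.0 and 39.4 CPM with 13.6, and 36.1, 33.7 and 36.2 CPM with 13.8, so that part of the mRNA remained in every knockdown library. CPM are read counts scaled by each library's total and its TMM factor. A gene is called higher or lower at an adjusted p under 0.05 (edgeR's quasi-likelihood test, Benjamini-Hochberg over 14731 genes), and "rose" and "fell" are used only for called genes. Log2 fold changes are given ± SE, and group levels as mean ± SD over n = 3 libraries.

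Collagens are secreted proteins whose chains carry regularly spaced glycine residues and wind around each other into a helix before they leave the endoplasmic reticulum. Fibrillar collagens build the banded fibrils of skin and bone, collagen IV builds the sheet of basement membranes, collagen VI forms beaded filaments beside cells, and the FACIT class sits on the surface of fibrils. Multiplexins lie in basement membrane zones, and transmembrane collagens span the plasma membrane. Most collagen in skin is made by dermal fibroblasts, while melanocytes rest on collagen IV and melanoma cells meet fibrillar collagen when they invade.

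Promoter sequences are shown for COL9A1, COL5A3, COL16A1 and COL4A1, on which the results below turn, and for COL11A2, which holds T-box words. COL21A1, the other chain with a T-box word, is not shown. They come from RefSeq on GRCh38.p14, each 300 bases long, 250 before a transcript start and 50 after it, written 5′ to 3′ on the strand of the gene. Entries were found for 32 of the 44 chains, 44 windows in all, and not for COL1A1, COL1A2, COL2A1, COL3A1, COL5A2, COL6A1, COL6A5, COL8A1, COL9A3, COL14A1, COL20A1 and COL22A1. COL9A1, the chain with large rises under both DsiRNAs, has 2 listed starts on the minus strand, at chr6:70283148-70283447 and chr6:70303035-70303334. COL5A3 (chr19:10010455-10010754) and COL16A1 (chr1:31703968-31704267), both on the minus strand, are shown because the DsiRNAs moved them in opposite directions. COL4A1 (chr13:110307108-110307407, minus strand) is the chain that fell with 13.8, and its window overlaps that of COL4A2 on the plus strand by 226 bases. COL11A2 is shown at the start (chr6:33177543-33177842, minus strand) whose window holds 2 T-box words. The windows of its other listed starts hold no T-box word. Those starts lie upstream, the nearest with its window at chr6:33190513-33190812, so the window shown is that of the farthest downstream start. Capitals mark exact matches, on either strand, to the T-box word GGTGTGA, the GC box GGGCGG, and the E-box words CACGTG and CATGTG.
COL9A1, nearer start: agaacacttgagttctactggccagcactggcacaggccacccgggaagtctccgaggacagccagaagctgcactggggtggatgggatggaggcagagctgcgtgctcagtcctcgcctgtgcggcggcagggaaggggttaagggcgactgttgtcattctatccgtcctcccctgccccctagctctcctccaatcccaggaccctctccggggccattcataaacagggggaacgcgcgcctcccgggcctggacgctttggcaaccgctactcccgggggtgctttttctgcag
COL9A1, farther start: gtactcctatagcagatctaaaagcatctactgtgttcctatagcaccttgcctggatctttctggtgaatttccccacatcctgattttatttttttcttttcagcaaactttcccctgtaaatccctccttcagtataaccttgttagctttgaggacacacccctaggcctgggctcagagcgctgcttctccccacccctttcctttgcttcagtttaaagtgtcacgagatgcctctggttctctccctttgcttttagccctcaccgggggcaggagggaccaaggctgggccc
COL5A3: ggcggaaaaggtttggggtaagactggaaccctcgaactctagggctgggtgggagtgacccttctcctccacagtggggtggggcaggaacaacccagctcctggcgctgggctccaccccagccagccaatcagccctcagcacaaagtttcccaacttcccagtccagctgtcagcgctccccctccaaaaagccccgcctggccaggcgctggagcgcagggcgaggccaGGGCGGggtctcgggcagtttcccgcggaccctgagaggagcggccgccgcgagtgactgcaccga
COL16A1: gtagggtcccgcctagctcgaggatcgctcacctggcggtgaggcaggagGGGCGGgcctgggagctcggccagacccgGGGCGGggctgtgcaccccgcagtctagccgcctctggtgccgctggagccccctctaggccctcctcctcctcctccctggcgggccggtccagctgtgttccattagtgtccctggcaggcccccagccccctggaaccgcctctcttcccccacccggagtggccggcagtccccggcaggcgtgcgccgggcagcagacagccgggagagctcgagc
COL4A1: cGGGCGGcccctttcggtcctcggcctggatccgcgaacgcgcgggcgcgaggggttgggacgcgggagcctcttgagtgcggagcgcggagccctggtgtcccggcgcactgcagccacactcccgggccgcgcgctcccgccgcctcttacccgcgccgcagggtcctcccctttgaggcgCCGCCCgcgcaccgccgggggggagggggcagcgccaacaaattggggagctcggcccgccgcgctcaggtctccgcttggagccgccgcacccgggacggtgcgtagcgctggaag
COL11A2: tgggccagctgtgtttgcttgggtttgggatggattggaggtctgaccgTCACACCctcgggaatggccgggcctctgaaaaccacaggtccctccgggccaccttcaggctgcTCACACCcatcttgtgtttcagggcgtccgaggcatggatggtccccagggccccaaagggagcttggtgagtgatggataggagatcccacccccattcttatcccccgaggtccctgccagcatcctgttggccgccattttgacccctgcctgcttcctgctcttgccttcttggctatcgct

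Of the 44 windows, 2 held the T-box word (4.55%, against 3.45% of all 35116 RefSeq promoter windows), in COL11A2 and COL21A1. The word CACGTG was in none (7.26% of all windows), and CATGTG was in 2, of COL10A1 and COL24A1 (11.1% of all). The GC box was in 24 windows of 21 chains (54.5%, against 45.0% of all). Neither COL9A1 window held any of these words, COL5A3 held 1 GC box, and COL16A1 and COL4A1 held 2 each. These matches describe the letters of the windows and are not binding sites.

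Every chain had reads, but few had many. The 44 chains together took 0.0263% to 0.0488% of the reads of a library. Their summed level was 280.1 ± 22.6 CPM in control, 321.4 ± 11.2 CPM with 13.6 and 469.8 ± 12.7 CPM with 13.8. The control libraries spanned 260.2 to 304.7 CPM, the 13.6 libraries 309.6 to 331.8 CPM and the 13.8 libraries 459.0 to 483.7 CPM, so the 3 groups did not overlap. In control, COL19A1 supplied 33.9 ± 1.8% of collagen reads and COL9A3 24.7 ± 0.3%, followed by COL6A1 with 10.0 ± 1.7% and COL5A3 with 9.6 ± 2.0%. With 13.8 the share of COL5A3 was 17.0 ± 2.1%, and with 13.6 it was 5.0 ± 0.5%. Per kilobase of exon, which allows levels of different genes to be compared, COL9A3 was highest in control at 27.7 ± 2.3 CPM per kb. It was followed by COL19A1 at 14.1 ± 1.1, COL6A1 at 6.57 ± 0.83, COL5A3 at 4.41 ± 1.27 and COL9A2 at 2.80 ± 0.22 CPM per kb. The chains of the commonest fibrils of skin stood far lower, COL1A1 at 0.219 ± 0.056, COL1A2 at 0.054 ± 0.030 and COL3A1 at 0.0028 ± 0.0024 CPM per kb. The 4 highest chains of control were therefore 2 FACIT chains, 1 chain of collagen VI and 1 minor fibrillar chain.

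**Figure D1:**
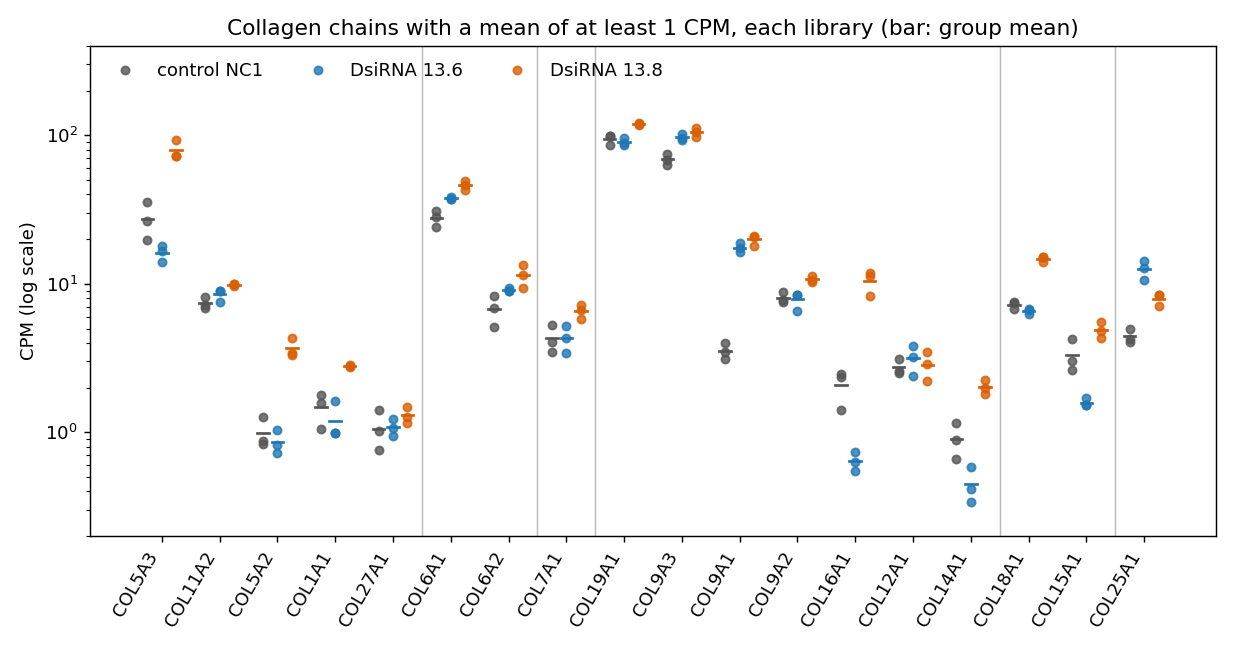
CPM on a log axis of the 18 collagen chains with a mean of at least 1 CPM, in each of the 9 libraries; points are libraries, short bars group means, colours the groups, and grey lines separate structural classes. COL9A1 lies between 3.10 and 3.98 CPM in control and between 16.3 and 21.0 CPM in the 6 knockdown libraries, while COL16A1 lies below control with 13.6 and above it with 13.8.

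The low-count filter kept 31 chains. Of these, 21 reached its minimum of 0.214 CPM in all 9 libraries, and 4 (COL1A2, COL13A1, COL17A1 and COL28A1) reached it in a whole group only with 13.8. COL22A1 reached it in every library of both DsiRNAs but in 1 of the 3 control libraries, so the counts below describe the chains that could be tested and not all 44. With 13.8, 20 of the 31 tested chains were higher than control and 1 was lower, while 27.5% of all tested genes were called higher and 27.9% lower. With 13.6, 6 were higher and 6 lower, and 24.9% of all tested genes were higher and 25.0% lower. The 13.6 count is thus close to the background in each direction, and the 13.8 count of higher chains lies above it. Compared directly, 2 chains were higher with 13.6 than with 13.8 and 16 were lower, against 30.9% and 30.2% of all tested genes. The median log2 fold change of the 31 chains was -0.13 with 13.6 and 0.70 with 13.8, and that of all tested genes -0.01 and 0.01. The 2 comparisons with control use the same 3 control libraries.

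Among the 18 chains with a mean of at least 1 CPM over the 9 libraries, 16 were higher with 13.8 and none lower, with 28.0% and 31.9% of all genes above that level called in those directions. COL12A1 and COL27A1 were the other 2. With 13.6, 5 were higher and 4 lower, and the shares over all such genes were 27.5% and 27.7%. Between the DsiRNAs, 1 of the 18 was higher with 13.6 and 11 were lower, against 34.9% and 30.7% of all such genes. The median log2 fold change of these 18 chains was -0.01 with 13.6 and 0.74 with 13.8. The mean that sets this cut includes the 13.8 libraries. COL14A1 (0.897 CPM in control, 0.446 with 13.6 and 2.01 with 13.8) and COL5A2 reached 1 CPM through that group, in which they are high. COL4A1, which fell with 13.8, was above 1 CPM on average in both other groups and missed the cut through its 13.8 libraries. The counts and medians of the 18 chains therefore rest in part on the cut.

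**Figure D2:**
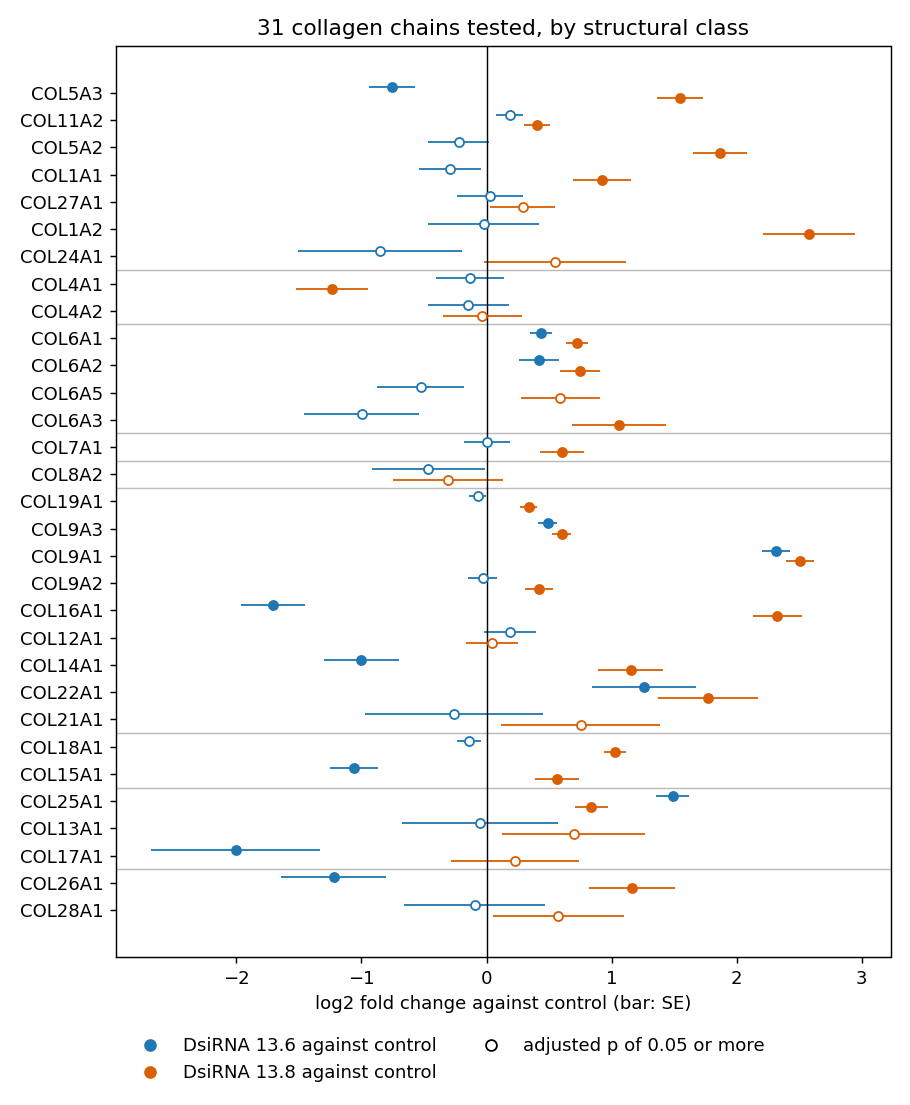
Log2 fold change against control of the 31 tested collagen chains, ordered by structural class (grey lines); points are estimates, bars SE, filled points have an adjusted p under 0.05. With 13.8, 20 filled points lie above 0 and COL4A1 below it at -1.23, while with 13.6 there are 6 on each side.

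Of the 11 fibrillar chains, 7 were tested. With 13.8, 5 rose (27.5% of all tested genes were called higher), and with 13.6, 1 fell (25.0% lower). COL1A2, among the 5, reached the low-count minimum in a whole group only with 13.8, so that count rests in part on the filter. COL5A3, a minor fibrillar chain that joins collagen V, was the most abundant of the 7 and moved in opposite directions. It stood at 35.5, 19.8 and 26.5 CPM in control, 18.1, 16.5 and 13.9 CPM with 13.6, and 72.8, 93.7 and 73.0 CPM with 13.8. The 3 groups did not overlap. COL5A3 rose 2.92-fold with 13.8 (log2 fold change 1.55 ± 0.18, adjusted p = 2.2e-05) and fell with 13.6 (-0.76 ± 0.19, adjusted p = 0.0056), a difference between the DsiRNAs of -2.30 ± 0.19 (adjusted p = 9.2e-07).

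COL5A2, which sits in collagen V fibrils with COL5A1, was at 1.28, 0.832 and 0.880 CPM in control, 1.04, 0.819 and 0.726 CPM with 13.6, and 3.41, 3.30 and 4.31 CPM with 13.8. Only the 13.8 libraries stood apart. The log2 fold change was 1.87 ± 0.22 with 13.8 (adjusted p = 8.5e-06) and -0.22 ± 0.25 with 13.6 (adjusted p = 0.48), and 13.6 was lower than 13.8 by -2.09 ± 0.22. COL1A1, a chain of the main fibril of skin and bone, was at 1.77, 1.59 and 1.05 CPM in control, 0.994, 1.62 and 0.990 CPM with 13.6, and 2.80, 2.75 and 2.85 CPM with 13.8. Its 13.6 libraries overlapped control and its 13.8 libraries lay above both groups. COL1A1 rose with 13.8 (0.92 ± 0.23, adjusted p = 0.0040), its value with 13.6 was -0.29 ± 0.25 (adjusted p = 0.35), and the DsiRNAs differed by -1.21 ± 0.23. COL1A2, its partner chain, was at 0.476, 0.234 and 0.171 CPM in control, 0.436, 0.280 and 0.176 CPM with 13.6, and 1.61, 1.75 and 2.05 CPM with 13.8. It entered the test only through its 13.8 libraries, in which it rose (2.58 ± 0.37, adjusted p = 5.7e-05), against -0.02 ± 0.45 with 13.6.

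COL11A2, a chain of the thin fibrils of cartilage, was at 8.20, 7.25 and 6.90 CPM in control, 8.95, 9.01 and 7.50 CPM with 13.6, and 9.99, 9.64 and 10.0 CPM with 13.8. The 13.8 libraries lay above the rest, and those of 13.6 overlapped control. The log2 fold changes were 0.40 ± 0.11 with 13.8 (adjusted p = 0.0055) and 0.19 ± 0.11 with 13.6 (adjusted p = 0.17), and their difference of -0.22 ± 0.11 was not called (adjusted p = 0.086). COL27A1, a fibrillar chain of developing cartilage, was at 1.41, 1.01 and 0.758 CPM in control, 0.945, 1.08 and 1.23 CPM with 13.6, and 1.48, 1.27 and 1.16 CPM with 13.8. All 3 groups overlapped, and no comparison was called (0.03 ± 0.27 with 13.6, 0.29 ± 0.26 with 13.8, and -0.26 ± 0.26 between them). COL24A1 was not called either (-0.85 ± 0.66 with 13.6 and 0.55 ± 0.57 with 13.8). The fibrillar chains COL2A1, COL3A1, COL5A1 and COL11A1 had 41, 45, 66 and 66 reads over all 9 libraries and were not tested.

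Collagen IV held the single tested chain that fell with 13.8. Its chains COL4A1 and COL4A2 are transcribed away from each other from start sites 127 bases apart, and their proteins assemble into 1 network. COL4A1 was at 1.54, 0.988 and 1.10 CPM in control, 1.04, 1.40 and 0.880 CPM with 13.6, and 0.481, 0.474 and 0.590 CPM with 13.8. COL4A2 was at 0.628, 0.650 and 0.685 CPM in control, 0.800, 0.496 and 0.484 CPM with 13.6, and 0.460, 0.740 and 0.711 CPM with 13.8. COL4A1 was thus low in the 13.8 libraries alone, and COL4A2 overlapped between all groups. COL4A1 fell with 13.8 (-1.23 ± 0.29, adjusted p = 0.0026) and was higher with 13.6 than with 13.8 (1.10 ± 0.29, adjusted p = 0.0049). With 13.6 against control it was not called (-0.13 ± 0.27, adjusted p = 0.72), and COL4A2 was not called in any comparison (-0.15 ± 0.32 with 13.6, -0.03 ± 0.32 with 13.8). The chains of the specialised networks of kidney, lung and eye, COL4A3, COL4A4, COL4A5 and COL4A6, had 42, 23, 11 and 23 reads in all and were not tested.

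Collagen VI rose in its main chains with both DsiRNAs. COL6A1 was at 28.3, 31.1 and 24.1 CPM in control, 38.3, 37.3 and 37.2 CPM with 13.6, and 49.1, 43.0 and 46.2 CPM with 13.8. The groups did not overlap. COL6A1 rose with 13.6 (0.43 ± 0.09, adjusted p = 0.0012) and with 13.8 (0.73 ± 0.09, adjusted p = 1.2e-05), and was lower with 13.6 than with 13.8 (-0.29 ± 0.09, adjusted p = 0.0099). COL6A2, whose gene is the next protein-coding gene beside COL6A1, was at 6.90, 8.35 and 5.16 CPM in control, 9.33, 8.97 and 9.0 CPM with 13.6, and 13.4, 11.4 and 9.37 CPM with 13.8. Both knockdown groups lay above control. COL6A2 rose with 13.8 (0.75 ± 0.16, adjusted p = 0.0015) and with 13.6 (0.42 ± 0.16, adjusted p = 0.046), while the difference between the DsiRNAs was not called (-0.32 ± 0.16, adjusted p = 0.089). Its call with 13.6 was lost with library totals in place of TMM (0.38, adjusted p = 0.074). It also ended when control replicate 1 or 3, any 13.6 replicate or 13.8 replicate 2 was left out, where it ran from 0.26 to 0.43 with adjusted p from 0.059 to 0.15.

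COL6A3, the large chain that completes the collagen VI molecule, was scarce at 0.331 ± 0.053 CPM in control, 0.165 ± 0.090 CPM with 13.6 and 0.696 ± 0.137 CPM with 13.8. It rose with 13.8 (1.06 ± 0.38, adjusted p = 0.029), was -1.0 ± 0.46 with 13.6 (adjusted p = 0.086), and differed between the DsiRNAs by -2.06 ± 0.41 (adjusted p = 0.00078). Leaving out control replicate 2, control replicate 3 or 13.8 replicate 3 ended the call with 13.8 (0.88 to 1.02, adjusted p 0.075 to 0.12), as did the lack of a filter (1.05, adjusted p = 0.051). Without 13.6 replicate 3, its 13.6 libraries were called lower than control (-1.52, adjusted p = 0.033). COL6A5 was -0.53 ± 0.35 with 13.6 and 0.59 ± 0.32 with 13.8, neither called, and the DsiRNAs differed by -1.12 ± 0.33 (adjusted p = 0.0098). COL6A6 had 72 reads in all and was not tested.

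COL7A1, which forms the anchoring fibrils beneath the epidermis, was at 5.30, 3.48 and 4.08 CPM in control, 5.24, 4.31 and 3.41 CPM with 13.6, and 6.63, 7.23 and 5.79 CPM with 13.8. The 13.8 libraries were the highest, and those of 13.6 spread over the range of control. COL7A1 rose with 13.8 (0.60 ± 0.18, adjusted p = 0.011), was 0.00 ± 0.18 with 13.6, and differed between the DsiRNAs by -0.60 ± 0.18 (adjusted p = 0.0096). The first of these calls was lost without control replicate 2 (0.48, adjusted p = 0.051) and the last without 13.6 replicate 3 (-0.46, adjusted p = 0.052). Among the short-chain network collagens, COL8A2 was not called (-0.46 ± 0.46 with 13.6 and -0.31 ± 0.44 with 13.8), and COL8A1 and COL10A1 had 13 and 37 reads in all.

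The FACIT class held the most abundant chains and the largest rise shared by the DsiRNAs. Of its 10 chains 9 were tested: 7 rose with 13.8, where 27.5% of all tested genes were called higher. With 13.6, 3 rose and 2 fell, which is near the 24.9% and 25.0% of all tested genes. COL22A1, which rose with both, passed the low-count filter through the DsiRNA groups, so both counts of rises rest in part on the filter. COL9A1, a chain of collagen IX, which coats cartilage fibrils, was at 3.10, 3.98 and 3.47 CPM in control, 16.3, 17.3 and 18.7 CPM with 13.6, and 21.0, 18.1 and 20.7 CPM with 13.8. Every knockdown library was far above every control library. COL9A1 rose 4.98-fold with 13.6 (2.32 ± 0.11, adjusted p = 7.0e-09) and 5.68-fold with 13.8 (2.51 ± 0.11, adjusted p = 1.6e-09), and the DsiRNAs were not called different (-0.19 ± 0.10, adjusted p = 0.11). The next protein-coding gene to COL9A1 is COL19A1, whose values are given below.

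COL9A3, the partner chain of highest level, was at 75.0, 63.5 and 68.7 CPM in control, 96.1, 102 and 92.6 CPM with 13.6, and 97.4, 111 and 105 CPM with 13.8. Both knockdown groups lay above control and overlapped each other. COL9A3 rose with 13.6 (0.49 ± 0.07, adjusted p = 0.00012) and with 13.8 (0.60 ± 0.07, adjusted p = 1.5e-05), with -0.11 ± 0.07 between them (adjusted p = 0.20). COL9A2, the other partner, was at 7.75, 7.57 and 8.75 CPM in control, 6.59, 8.47 and 8.47 CPM with 13.6, and 11.2, 10.7 and 10.3 CPM with 13.8. It was high in the 13.8 libraries alone. COL9A2 rose with 13.8 (0.42 ± 0.11, adjusted p = 0.0066), was -0.03 ± 0.12 with 13.6 (adjusted p = 0.85), and differed between the DsiRNAs by -0.45 ± 0.11 (adjusted p = 0.0037).

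COL19A1, a rare FACIT chain of basement membrane zones, was the most counted chain of control and moved little. It was at 99.3, 86.2 and 98.7 CPM in control, 96.5, 88.2 and 85.8 CPM with 13.6, and 117.5, 119.5 and 121.8 CPM with 13.8. It rose 1.26-fold with 13.8 (0.34 ± 0.07, adjusted p = 0.0010), was -0.07 ± 0.07 with 13.6 (adjusted p = 0.41), and was lower with 13.6 than with 13.8 (-0.41 ± 0.07, adjusted p = 0.00019). COL16A1, which binds fibrils and fibrillin microfibrils, had the widest gap between the DsiRNAs of all tested chains. It was at 2.36, 1.40 and 2.47 CPM in control, 0.630, 0.733 and 0.550 CPM with 13.6, and 8.34, 11.8 and 11.3 CPM with 13.8, with no overlap between groups. COL16A1 fell with 13.6 (-1.71 ± 0.26, adjusted p = 0.00011) and rose with 13.8 (2.33 ± 0.20, adjusted p = 4.4e-07), a difference of -4.03 ± 0.23 (adjusted p = 1.1e-08).

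COL14A1, a FACIT chain that binds collagen I fibrils, was at 1.15, 0.884 and 0.660 CPM in control, 0.339, 0.582 and 0.418 CPM with 13.6, and 2.24, 1.80 and 1.99 CPM with 13.8. It followed the pattern of COL16A1 with smaller steps. COL14A1 fell with 13.6 (-1.0 ± 0.30, adjusted p = 0.014) and rose with 13.8 (1.15 ± 0.26, adjusted p = 0.0020), a difference of -2.15 ± 0.28 (adjusted p = 2.1e-05). The fall was not called without control replicate 1 (-0.78, adjusted p = 0.067) or 13.6 replicate 1 (adjusted p = 0.053). COL12A1, which bridges fibrils in tendon and skin, was at 3.14, 2.60 and 2.49 CPM in control, 3.83, 2.39 and 3.21 CPM with 13.6, and 3.47, 2.20 and 2.87 CPM with 13.8. Its groups overlapped throughout, and no comparison was called (0.19 ± 0.21, 0.05 ± 0.21 and 0.14 ± 0.21 in turn for 13.6, 13.8 and their difference). COL22A1, a chain of tissue junctions such as that of muscle and tendon, was at 0.233 ± 0.10 CPM in control, 0.572 ± 0.057 CPM with 13.6 and 0.812 ± 0.288 CPM with 13.8. It rose with 13.8 (1.77 ± 0.40, adjusted p = 0.0021) and with 13.6 (1.26 ± 0.42, adjusted p = 0.023), but it passed the low-count filter through those 2 groups, in which it is high. The call with 13.6 ended when control replicate 2, control replicate 3, 13.6 replicate 1 or 13.6 replicate 2 was left out (1.05 to 1.22, adjusted p 0.054 to 0.079). COL21A1 was not called (-0.26 ± 0.71 and 0.75 ± 0.63), and COL20A1 had 61 reads in all.

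Both multiplexins, whose C-terminal fragments are endostatin and restin, rose with 13.8. COL18A1 was at 7.55, 7.49 and 6.72 CPM in control, 6.76, 6.27 and 6.71 CPM with 13.6, and 15.2, 14.1 and 15.1 CPM with 13.8. The 13.6 libraries overlapped control and the 13.8 libraries stood clear of both. COL18A1 rose 2.04-fold with 13.8 (1.03 ± 0.09, adjusted p = 7.1e-07), against -0.14 ± 0.10 with 13.6 (adjusted p = 0.24) and a difference of -1.17 ± 0.09 (adjusted p = 1.9e-07). COL15A1 was at 4.22, 3.04 and 2.62 CPM in control, 1.53, 1.53 and 1.69 CPM with 13.6, and 5.54, 4.31 and 4.82 CPM with 13.8. Its groups did not overlap. COL15A1 fell with 13.6 (-1.06 ± 0.19, adjusted p = 0.00052) and rose with 13.8 (0.56 ± 0.18, adjusted p = 0.015), a difference of -1.62 ± 0.19 (adjusted p = 7.1e-06). The rise was not called without control replicate 2 or 3 or 13.8 replicate 1 (0.42 to 0.51, adjusted p 0.053 to 0.058).

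Among transmembrane collagens, COL25A1, a neuronal chain found in amyloid plaques, rose with both DsiRNAs and further with 13.6. It was at 4.98, 4.08 and 4.25 CPM in control, 14.2, 10.65 and 12.7 CPM with 13.6, and 8.44, 7.10 and 8.35 CPM with 13.8. The groups did not overlap, and this was the single chain with a mean of at least 1 CPM that was higher with 13.6 than with 13.8. COL4A1, under that mean, was higher with 13.6 as well. COL25A1 rose 2.81-fold with 13.6 (1.49 ± 0.13, adjusted p = 9.9e-07) and 1.79-fold with 13.8 (0.84 ± 0.13, adjusted p = 0.00013), a difference of 0.65 ± 0.12 (adjusted p = 0.00052). COL17A1, a hemidesmosome chain of keratinocytes, was at 0.243 ± 0.186 CPM in control and 0.060 ± 0.015 CPM with 13.6. It fell with 13.6 (-2.01 ± 0.67, adjusted p = 0.025), but it entered the test only through its 13.8 libraries, and the call was lost without control replicate 1 (-1.17, adjusted p = 0.20), 13.6 replicate 2 (-2.06, adjusted p = 0.061) or 13.6 replicate 3 (-1.83, adjusted p = 0.079). COL17A1 was 0.23 ± 0.51 with 13.8 and differed between the DsiRNAs by -2.23 ± 0.65 (adjusted p = 0.0090). COL13A1 was not called (-0.05 ± 0.62 and 0.70 ± 0.57), and COL23A1 had 4 reads in all.

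Of the 2 chains outside these classes, COL26A1 was at 0.515 ± 0.193 CPM in control, 0.218 ± 0.102 CPM with 13.6 and 1.15 ± 0.13 CPM with 13.8. It fell with 13.6 (-1.22 ± 0.42, adjusted p = 0.027) and rose with 13.8 (1.16 ± 0.34, adjusted p = 0.011), a difference of -2.39 ± 0.38 (adjusted p = 0.00012). The fall was not called without control replicate 3 (-0.88), 13.6 replicate 1 (-1.15) or 13.6 replicate 2 (-0.95), with adjusted p from 0.072 to 0.13. COL28A1 was not called (-0.09 ± 0.56 and 0.57 ± 0.52).

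Chains that join 1 molecule did not keep their proportions in every case. The ratio of COL9A1 to COL9A3 reads per kilobase was 0.0197, 0.0298 and 0.0241 in control, 0.0810, 0.0809 and 0.0962 with 13.6, and 0.103, 0.0772 and 0.0934 with 13.8. Both knockdown groups lay above control, by 1.83 and 1.90 on the log2 scale (exact permutation p = 0.1 for each, two-sided, which is the smallest p that 3 against 3 libraries allow). COL9A2 to COL9A3 was 0.102 ± 0.011 in control, 0.071 ± 0.010 with 13.6 and 0.090 ± 0.009 with 13.8, with the 13.6 libraries below control and those of 13.8 overlapping it. COL4A1 to COL4A2 was 4.22, 2.62 and 2.77 in control, 2.25, 4.87 and 3.13 with 13.6, and 1.80, 1.11 and 1.43 with 13.8. The 13.8 ratios lay below all others, by -1.14 against control (exact permutation p = 0.1). COL1A1 to COL1A2 was 4.47 ± 1.30 in control, 3.67 ± 1.59 with 13.6 and 1.26 ± 0.14 with 13.8. COL6A1 to COL6A2 had group means of 4.33 ± 0.50, 4.29 ± 0.03 and 4.28 ± 0.73, and its groups overlapped. COL6A1 to the scarce COL6A3 was 186, 279 and 195 in control, 675, 1109 and 361 with 13.6, and 201, 182 and 139 with 13.8. These ratios lay above control with 13.6, by 1.58 on the log2 scale (exact permutation p = 0.1), and overlapped it with 13.8. These ratios use exon lengths over all transcripts of a gene.

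**Figure D3:**
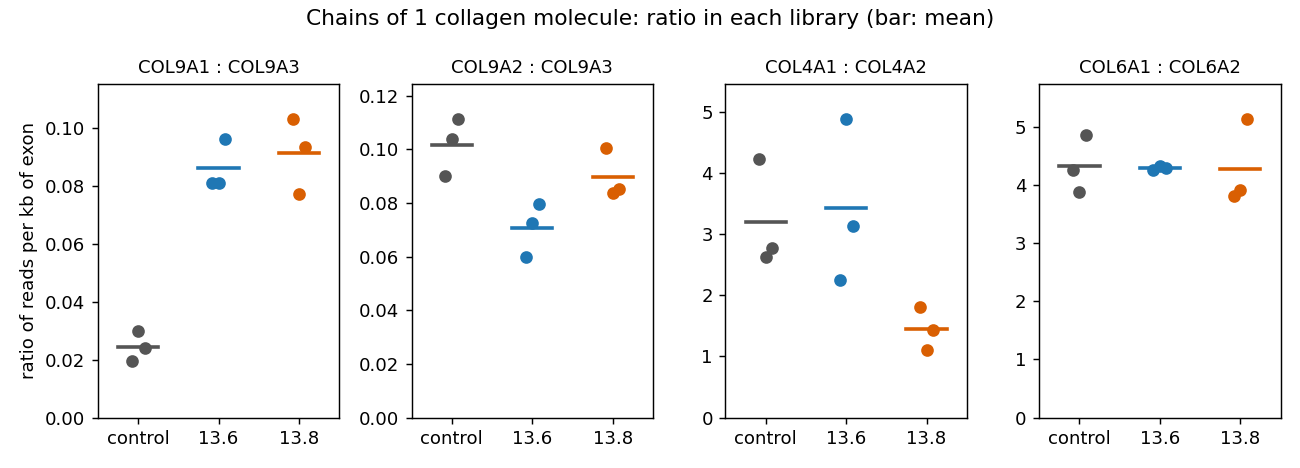
Ratio of reads per kilobase of exon between chains that assemble into 1 collagen molecule, in each library (points) with the group mean (bars); all axes start at 0. The ratio of COL9A1 to COL9A3 is between 0.0197 and 0.0298 in control and between 0.0772 and 0.103 in the knockdown libraries, and that of COL6A1 to COL6A2 overlaps between groups.

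The 13 chains that were not tested are given as reads over the 3 libraries of control, 13.6 and 13.8. COL3A1, the fibril chain of skin and vessels, had 2, 7 and 36 reads, and 21 of the 36 came from 13.8 replicate 3. Its ratio of 13.8 to control was 15.1 (95% interval 3.89 to 129). Such ratios are scaled by library totals and TMM factors, and their intervals hold counting error only. COL5A1, the partner of COL5A2, had 38, 12 and 16 reads, a ratio to control of 0.298 with 13.6 (0.142 to 0.582) and 0.353 with 13.8 (0.184 to 0.649), and 22 of its 38 control reads came from replicate 1. COL20A1 had 33, 20 and 8 reads, and COL11A1 17, 7 and 42, of which 27 came from 13.8 replicate 3. With no filter on low counts, edgeR called COL3A1 higher (adjusted p = 0.0028) and COL20A1 lower (adjusted p = 0.022) with 13.8, and did not call COL5A1 (adjusted p = 0.12) or COL11A1 (adjusted p = 0.29). COL6A6 had 29, 12 and 31 reads, COL4A3 10, 10 and 22, COL2A1 13, 14 and 14, and COL10A1 7, 7 and 23. COL4A4 had 7, 7 and 9, COL4A6 10, 2 and 11, COL8A1 6, 2 and 5, COL4A5 2, 0 and 9, and COL23A1 0, 1 and 3. The counting intervals of the ratios to control of COL2A1, COL4A3, COL4A4 and COL8A1 included 1 for both DsiRNAs, so that no difference was detectable at this depth. Those of COL10A1 (1.145 to 7.60) and COL20A1 (0.081 to 0.449) with 13.8 left out 1, as did those of COL4A6 (0.020 to 0.885) and COL6A6 (0.181 to 0.789) with 13.6. The intervals of COL11A1 lay below 1 with 13.6 (0.136 to 0.986) and above 1 with 13.8 (1.15 to 3.88). Of these chains, edgeR with no filter called only COL20A1 against control.

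Genes that mature, export, process, bind or degrade collagen were read in 7 lists with 66 genes in the table, of which 50 were tested. With 13.6, 21 (42% of the tested genes) were higher and 10 (20%) lower, against 24.9% and 25.0% of all tested genes. With 13.8, 36 (72%) were higher and 3 (6%) lower, against 27.5% and 27.9%. Of the 50, 5 (ADAMTS3, DCN, ITGA11, LOXL1 and MMP1) reached the low-count minimum in a whole group only with 13.8. LOX and TNXB did not reach it in all control libraries. The counts and medians given below for propeptide cleavage, crosslinking, receptors, degradation and fibril-binding proteins therefore rest in part on the filter. The median log2 fold change of the 50 genes was 0.39 with 13.6 and 0.50 with 13.8.

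Of 18 genes of collagen maturation in the endoplasmic reticulum 15 were tested, with 10 higher and 2 lower with 13.6 (median 0.41) and 13 higher and none lower with 13.8 (median 0.39). Over all tested genes the shares were 24.9% higher and 25.0% lower with 13.6, and 27.5% and 27.9% with 13.8. CRTAP, part of the prolyl 3-hydroxylase complex, rose by 0.74 ± 0.06 with 13.6 and 0.19 ± 0.06 with 13.8. COLGALT2, a galactosyltransferase that glycosylates hydroxylysine, rose by 1.00 ± 0.09 and 0.23 ± 0.09, and the lysyl hydroxylase PLOD3 by 0.57 ± 0.07 and 0.25 ± 0.07. FKBP10, a collagen chaperone, rose with 13.8 by 0.76 ± 0.06 and was 0.13 ± 0.06 with 13.6 (adjusted p = 0.068). LEPREL4, now named P3H4, rose by 0.37 ± 0.07 and 0.69 ± 0.06, and the prolyl isomerase FKBP14 by 0.20 ± 0.07 and 0.64 ± 0.07. PLOD2, whose product sets telopeptide crosslinks, and COLGALT1 were the 2 that fell with 13.6 (-0.56 ± 0.13 and -0.19 ± 0.06), and both rose with 13.8 (0.67 ± 0.12 and 0.47 ± 0.06). SERPINH1, the chaperone HSP47 that is dedicated to procollagen, had 70 reads over all 9 libraries and was not tested, while P4HB, the beta subunit of prolyl 4-hydroxylase, stood at 546 CPM in control.

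Of the 6 export genes 1 was higher and 4 lower with 13.6 (median -0.21), and 1 was higher and 3 lower with 13.8 (median -0.14). The single higher gene is near the share over all tested genes, 24.9% with 13.6 and 27.5% with 13.8, and 25.0% and 27.9% were lower. MIA3, the TANGO1 receptor that loads procollagen into carriers, rose by 0.54 ± 0.08 with 13.6 and 0.38 ± 0.08 with 13.8. The coat subunit SEC24D fell with both (-0.45 ± 0.08 and -0.82 ± 0.08), as did its partner SEC23A (-0.16 ± 0.05 and -0.23 ± 0.05). TMEM38B, an intracellular cation channel, fell as well (-0.93 ± 0.10 and -0.34 ± 0.10). Of 8 genes of propeptide cleavage 5 were tested, with 2 higher and 1 lower with 13.6 (median 0.58) and 4 higher with 13.8 (median 1.58), beside the same shares. PCOLCE2, an enhancer of C-proteinase, rose by 0.88 ± 0.11 and 2.06 ± 0.11, and the C-proteinase BMP1 by 0.60 ± 0.10 and 0.36 ± 0.10. TLL2, related to BMP1, rose with 13.8 (1.71 ± 0.38), and PCOLCE fell with 13.6 (-0.37 ± 0.14).

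Of 5 lysyl oxidases, which crosslink fibrils, 4 were tested, with 1 lower with 13.6 (median 0.01) and 2 higher with 13.8 (median 0.74), where 25.0% of all tested genes were lower with 13.6 and 27.5% higher with 13.8. LOXL2 was at 4.33, 2.16 and 2.49 CPM in control, 0.485, 0.410 and 0.330 CPM with 13.6, and 3.16, 3.04 and 2.68 CPM with 13.8. It was low with 13.6 alone, where it fell (-2.88 ± 0.30, adjusted p = 3.7e-06), against -0.03 ± 0.23 with 13.8. LOXL3 (1.41 ± 0.31) and the scarce LOXL1 (3.00 ± 0.80), tested only through its 13.8 libraries, rose with 13.8. Of 10 collagen receptors 8 were tested, with 4 higher with 13.6 (median 0.61), 6 higher with 13.8 (median 0.94) and none lower. Of all tested genes, 24.9% were higher with 13.6 and 27.5% with 13.8. ITGB1, the beta subunit shared by the collagen-binding integrins, rose by 1.02 ± 0.06 with 13.6 and 0.86 ± 0.06 with 13.8. Its partner ITGA1 rose by 0.70 ± 0.18 and 1.79 ± 0.17, and ITGA2 rose with 13.6 (1.61 ± 0.13) and was 0.30 ± 0.14 with 13.8 (adjusted p = 0.081). DDR2, a receptor kinase for fibrillar collagen, was at 1.77, 0.858 and 1.27 CPM in control, 1.24, 0.927 and 0.836 CPM with 13.6, and 12.6, 11.5 and 14.3 CPM with 13.8. It was high with 13.8 alone (3.28 ± 0.20, adjusted p = 2.5e-08), against -0.41 ± 0.25 with 13.6 (adjusted p = 0.20).

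Of 10 degradation genes 6 were tested, with 2 higher and 1 lower with 13.6 (median 0.18) and 5 higher with 13.8 (median 0.89). The 13.6 counts are near the 24.9% and 25.0% of all tested genes, and 27.5% of those were higher with 13.8. MMP14, the membrane-bound collagenase, rose by 0.59 ± 0.06 and 0.86 ± 0.06, and the gelatinase MMP2 by 0.50 ± 0.11 with each DsiRNA. MMP8 fell with 13.6 (-1.08 ± 0.27). FAP, a surface protease that trims cleaved collagen, rose with 13.8 from 0.264 to 3.32 CPM (3.64 ± 0.31, adjusted p = 5.1e-07) and was -0.14 ± 0.42 with 13.6. Of 9 fibril-binding proteins 6 were tested, with 2 higher and 1 lower with 13.6 (median 0.13) and 5 higher with 13.8 (median 1.15), against the same shares. PRELP, a leucine-rich proteoglycan of basement membranes, was at 1.31 CPM in control and 19.1 CPM with 13.8 (3.87 ± 0.13, adjusted p = 2.7e-10), and its 13.6 value was 0.42 ± 0.16 (adjusted p = 0.037). SPARC rose by 0.70 ± 0.06 and 0.50 ± 0.06. The fibril-spacing proteoglycan LUM rose with 13.8 (1.81 ± 0.15), and FN1 fell with 13.6 (-0.37 ± 0.12) and rose with 13.8 (0.45 ± 0.12).

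**Figure D4:**
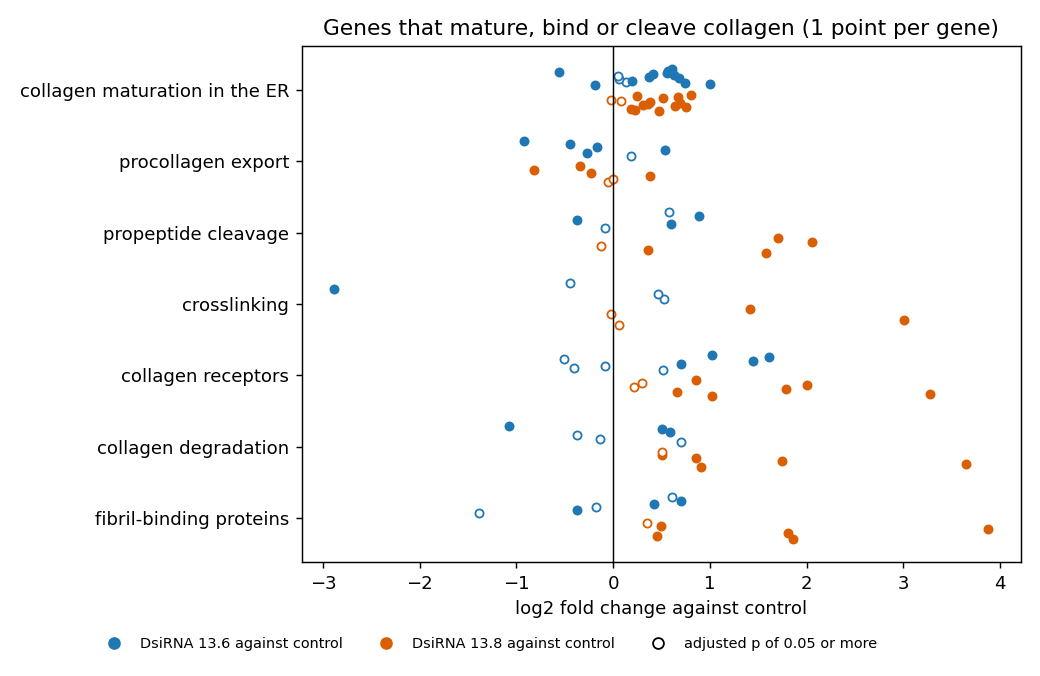
Log2 fold change against control of the 50 tested genes of the 7 lists that mature, export, cleave, crosslink, bind or degrade collagen; 1 point per gene and DsiRNA, filled where the adjusted p is under 0.05. With 13.8, 36 filled points lie above 0 and 3 below it, the highest being PRELP at 3.87, and with 13.6 the lowest is LOXL2 at -2.88.

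Libraries held 38105026 to 52272147 counted reads. All 7 melanocyte markers were abundant, with a summed level of at least 13333.4 CPM in every library. The 9 fibroblast markers summed to 6.16 to 6.97 CPM in control, 4.70 to 5.57 CPM with 13.6 and 16.2 to 20.5 CPM with 13.8. Of these markers 4 were tested (PDGFRA, DCN, LUM and TCF21), and all 4 rose with 13.8 (27.5% of all tested genes did). DCN reached the low-count minimum in a whole group only with 13.8, and PDGFRA reached it in 2 of 3 control libraries, so that count rests in part on the filter. Of the others, TWIST2 had no reads and MFAP5 and DPT had 3 and 5 reads in all. DCN and LUM also stand in the list of fibril-binding proteins. The 5 endothelial markers summed to at most 0.909 CPM and the 5 leukocyte markers to at most 2.18 CPM in any library. VWF, the 1 endothelial marker tested, fell with 13.6 (-1.46 ± 0.44), and LYZ, 1 of 2 leukocyte markers tested, rose with 13.8 (0.83 ± 0.27). The 5 keratinocyte markers summed to 39.3 to 46.3 CPM, nearly all of it from KRT10, which was not called against control with either DsiRNA, while KRT5 had no reads and KRT1 and KRT14 had 4 and 1 in all. The 4 Schwann cell markers PMP2, MAL, PRX and EGR2, all tested, summed to 53.5 to 59.4 CPM in control, 89.6 to 92.2 CPM with 13.6 and 44.5 to 49.9 CPM with 13.8. With 13.6, PMP2 and PRX rose and none fell, against 24.9% and 25.0% of all tested genes. With 13.8 these 2 and MAL rose and EGR2 fell (-1.28 ± 0.07), against 27.5% and 27.9%. MAL reached the low-count minimum in a whole group only with 13.8, so its call rests in part on the filter. PMP2, a myelin protein, rose by 1.88 ± 0.14 with 13.6 and 0.92 ± 0.13 with 13.8, and MAL had 2, 1 and 71 reads in control, 13.6 and 13.8. The part of fibroblast and Schwann cell markers in the collagen changes was not tested. Fewer cells that make a transcript and less of it per cell cannot be told apart in RNA from whole cultures.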

How the data were processed

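RNA was sequenced from 9 libraries of 501mel cells, 3 per group, with a kit that keeps strand, per the labels' protocols. The submitters' processing notes name the build hg19 and the tools STAR, HTSeq, cutadapt, FastQC and DESeq2; which versions and annotation were taken, and whether counting used strand, is not given in the sources used here, so that reads of overlapping antisense genes may not be told apart. The deposited table holds raw read counts per symbol. The authors' second table holds log2 values of counts divided by size factors, plus 1, and served only to check the counts, which it gave back within 0.00201 of a read over 25378 genes. Of 25398 entries, 16 repeats were left out, which leaves 25382.

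Counts were fitted with edgeR 4.0.16 in R 4.3.3 (TMM, filterByExpr with its preset of 10 reads, quasi-likelihood with robust spread, 1 mean per group, all 9 libraries, 6 residual degrees of freedom, two-sided), and the script was tested on simulated data. The 14731 tested genes hold 99.97% of the reads. Library totals of 38105026 to 52272147 reads set the precision, and intervals of ratios at the 95% level hold counting error only. Alternatives were DESeq2 1.42.0, limma-voom (limma 3.58.1), DESeq2 size factors, library totals, no filter, a mean of at least 50 reads, only the groups compared, the replicate number as a block, and each library left out in turn.

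Chains with a mean of at least 1 CPM are given in every library, other tested chains by fold change, and the rest by reads; per-library values of COL1A2, COL4A1, COL4A2 and of genes that are no collagen chain were chosen after their values were seen. Genes of the pathway lists are the 3 with the smallest adjusted p in a comparison, with those that went against their list. The members and all lists were chosen with earlier results of these data known, and 1 gene of a marker list is not reported here. Exon lengths come from GENCODE on GRCh38, and promoters and neighbouring genes from RefSeq on GRCh38.p14.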

Additional observations from a re-analysis of the deposited data

Results flagged for a closer look

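For 5 collagen chains each DsiRNA gave a called change against control, and the changes had opposite signs: lower with 13.6 and higher with 13.8. Of all tested genes, 25.0% were called lower with 13.6 and 27.5% higher with 13.8. The share with both calls was not computed, so the 5 chains have no background to be judged by. The difference between the DsiRNAs was tested directly in the edgeR model. Given as the log2 fold change of 13.6 minus 13.8, it was -4.03 for COL16A1 (adjusted p = 1.1e-08), -2.39 for COL26A1 (adjusted p = 0.00012), -2.30 for COL5A3 (adjusted p = 9.2e-07), -2.15 for COL14A1 (adjusted p = 2.1e-05) and -1.62 for COL15A1 (adjusted p = 7.1e-06). In each of these chains the 3 libraries of 13.6 lay below, and the 3 of 13.8 above, the 3 control libraries. How often that held over all tested genes was not counted. With certain single libraries left out, the falls of COL14A1 (adjusted p 0.053 to 0.067) and COL26A1 (0.072 to 0.13) were not called. The same was true of the rise of COL15A1 (0.053 to 0.058). COL16A1 and COL14A1 are FACIT chains, COL5A3 is fibrillar and COL15A1 a multiplexin, while COL26A1 lies outside the structural classes. TBX3 itself was lower with 13.8 than with 13.6 by a log2 fold change of 0.26 ± 0.07.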

How the results depend on the processing

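Of 1539 fold changes of tested chains under the alternatives, 1504 kept their side of the threshold, 28 lost a call and 7 gained one. No called change was called in the opposite direction. The count of chains lower with 13.8 than control, 1 in the report (COL4A1), was 2 with DESeq2 and 2 with no filter (COL20A1 added), 0 with a mean of at least 50 reads, where COL4A1 was not tested, and 1 to 2 with single libraries left out. The count of chains higher with 13.6 than with 13.8, 2 in the report, was 1 with a mean of at least 50 reads. With single libraries left out, chains higher and lower with 13.6 were 4 to 6 each, chains higher with 13.8 17 to 20, and chains lower with 13.6 than with 13.8 16 to 17.

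With the replicate number as a block, 6 chains were higher and 6 lower with 13.6, 20 higher and 1 lower with 13.8, and 2 higher and 17 lower between the DsiRNAs. The block called 8010, 8803 and 9581 of all genes in these comparisons, against 7357, 8169 and 8995 without it. Deviations of libraries with the same number correlated from -0.179 to 0.187, and not every library correlated best with its own number, so the numbers were not taken to pair the samples.

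Depth limits the 13 chains that were not tested, each with at most 72 reads over the 9 libraries, and 10 of the 31 tested chains had at least 1 library under the minimum of 0.214 CPM. P-values of the edgeR fit rest on the spread between libraries within groups, estimated over all 9 libraries with 6 residual degrees of freedom, in 1 cell line.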

Other observations

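The symbol rule leaves out other genes whose proteins carry a collagen-like domain. A list of 25 such genes, chosen after the data were seen, had 10 tested members: with 13.6, 2 were higher and 1 lower, and with 13.8, 5 were higher and 1 lower. Over all tested genes the shares were 24.9% higher and 25.0% lower with 13.6, which the list does not exceed, and 27.5% and 27.9% with 13.8. C1QTNF3, a secreted C1q and TNF-related protein, was the most abundant, at 21.1 CPM in control, 60.2 CPM with 13.6 and 25.8 CPM with 13.8. It rose with 13.6 (1.51 ± 0.09) more than with 13.8 (0.29 ± 0.09), a difference of 1.22 ± 0.09. C1QTNF1 rose with both (0.70 ± 0.18 with 13.6 and 2.09 ± 0.17 with 13.8). EMID1 fell with 13.6 (-0.82 ± 0.20), and the scavenger receptor SCARA5 fell with 13.8 (-1.56 ± 0.29). GLDN, a gliomedin of nodes of Ranvier (1.28 ± 0.32), EDA, the ligand ectodysplasin (1.58 ± 0.32), and C1QTNF6 (1.64 ± 0.51), which reached the low-count minimum in a whole group only with 13.8, rose with 13.8, and COLQ, EMILIN1 and COLEC11 were not called against control.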
